A study of Homo sapiens with 12 samples.

Results

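The comparison set 9 libraries of human podocytes treated with a calcineurin inhibitor against 3 libraries treated with solvent, 12 of the 12 libraries of the series, and asked which genes moved the same way under all 3 inhibitors. The cells were a conditionally immortalized human podocyte line that carries a temperature-sensitive SV40 T gene, so every culture, solvent controls included, held that gene and had matured after a shift to the non-permissive temperature. Cultures received 100 nM cyclosporine A (CSA, 3 libraries), 100 nM tacrolimus (TAC, 3 libraries), 100 nM voclosporin (VCS, 3 libraries) or DMSO (3 libraries) for 24 h. All are from 1 line, and the labels do not say whether replicates were separate cultures, passages or days, so p-values measure only the spread between these libraries.

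Podocytes are the epithelial cells that wrap the capillaries of the kidney filter. Calcineurin is a calcium-activated phosphatase that removes phosphate from NFAT transcription factors and lets them enter the nucleus; it also acts on the podocyte's actin cytoskeleton, where synaptopodin is one of its substrates. CSA and its analog VCS bind cyclophilins and TAC, a macrolide, binds FKBP proteins, and each drug and protein pair then blocks calcineurin. A change shared by all 3 drugs is therefore of interest as one that does not go with a single binding protein.

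The files held 28808213 to 36077072 counts per library and 28419 to 29296 genes with a count. Mitochondrial transcripts took 9.68 to 13.4% of the counts in the 4 libraries numbered 3 and 5.82 to 8.12% in the others, so those 4 libraries stood apart in every group. Defining podocyte markers were scarce: NPHS1, which encodes nephrin, had 1 to 11 counts, and the transcription factor gene WT1 averaged 1.08 ± 0.308 CPM in inhibitor libraries (SD, n = 9) and 0.854 ± 0.219 CPM in DMSO libraries (SD, n = 3). The summed level of all 15 podocyte markers listed ran from 226.6 to 278.8 CPM in CSA, 225.6 to 239.3 in TAC, 230.3 to 241.1 in VCS and 210.3 to 230.9 in DMSO. CPM (counts scaled to library size) do not correct for gene length. In such bulk RNA, fewer cells of a type and less RNA per cell cannot be told apart.

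No gene passed the test in the mean of the 3 inhibitors against DMSO and also moved the same way in all 3 groups, which means that all 9 differences between an inhibitor library and the DMSO library of the same number had 1 sign. The test was edgeR's quasi-likelihood test with the replicate number as a block, run on 19784 genes, with a Benjamini-Hochberg adjusted p under 0.05 as the threshold. It called 3 genes (0.0152% of those tested), 0 higher (0%) and 3 lower (0.0152%), and those 3 differed among the inhibitors. DESeq2, a second count model, called 71 genes, 53 of them moved the same way. The count of 3 became 7 without CSA replicate 1, 12 without CSA replicate 3, 5 without VCS replicate 1 or 3, and 1 without TAC replicate 1, 2 or 3 or VCS replicate 2. Leaving out the 4 libraries of 1 number gave 4, 0 and 20 genes for numbers 1, 2 and 3.

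Weak displacement was more frequent than the calls. At an unadjusted p under 0.05, 2552 genes (12.9%) differed from DMSO, where 989 would be expected if no gene differed and genes were independent. Of these, 1230 lay higher (6.22%) and 1322 lower (6.68%). All 9 within-number differences were above 0 for 832 genes (4.21%) and none was above 0 for 833 (4.21%). With an unadjusted p under 0.05 as well, this held for 618 genes above 0 (3.12%) and 630 below (3.18%). The 3 inhibitor groups are compared with the same 3 DMSO libraries, so a high or low DMSO library displaces the 3 differences of its number together, the 9 differences are not independent, and these shares are the background for the lists below. All 9 inhibitor libraries lay above all 3 DMSO libraries for 49 genes (0.248%) and below them for 78 (0.394%). The count at an unadjusted p under 0.05 was 1008 without DMSO replicate 2, 1682 without DMSO replicate 1, 1667 without DMSO replicate 3 and 725 without the replicate block.

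**Figure D1:**
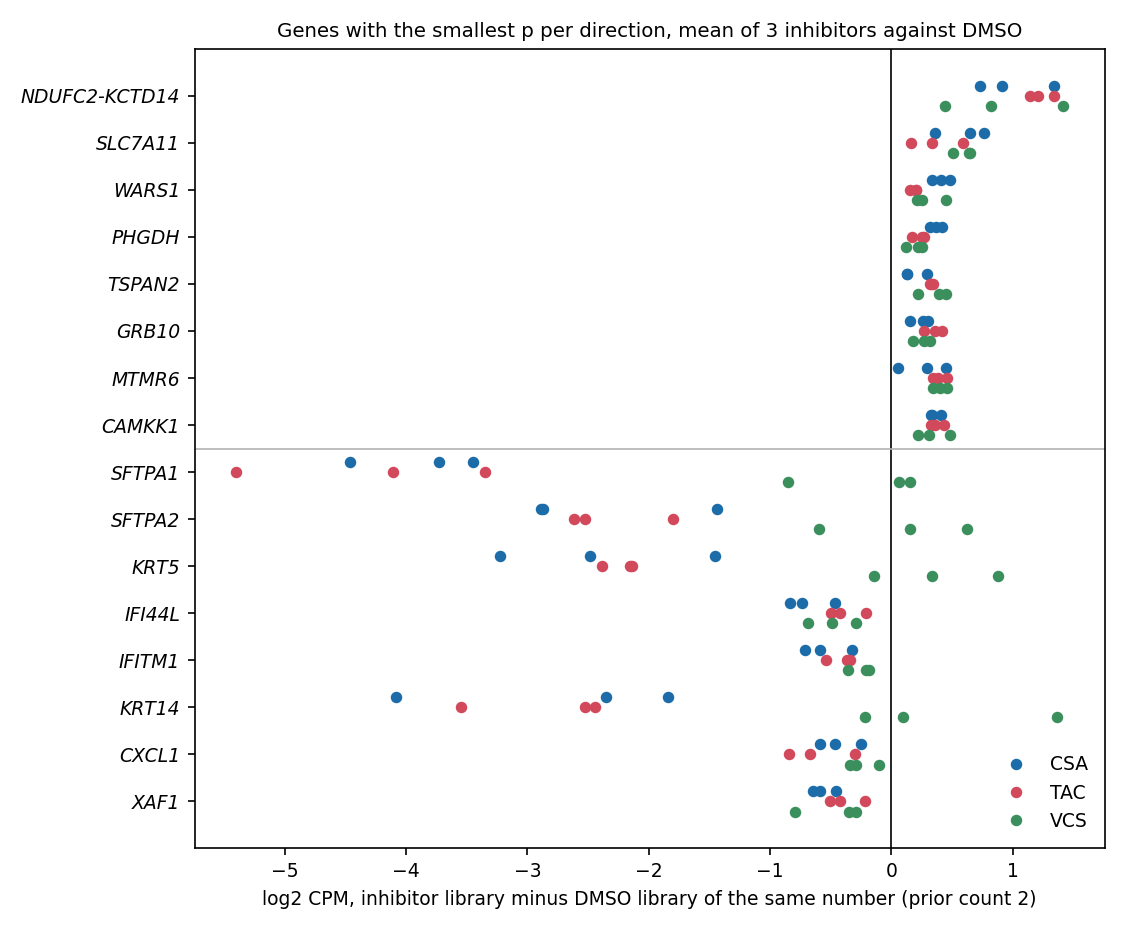
Within-number differences of the 8 genes of smallest p in each direction that reached 1 CPM, as log2 CPM of an inhibitor library minus the DMSO library of the same number, 3 points per inhibitor. The 8 upper genes have all 9 points above 0. Below them IFI44L, IFITM1, CXCL1 and XAF1 have all 9 below 0, and SFTPA1, SFTPA2, KRT5 and KRT14 are below 0 at all CSA and TAC points and on both sides of 0 in VCS, where KRT14 reaches 1.37.

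Interferon-stimulated genes were the pathway list displaced furthest below 0 in the mean contrast. By edgeR's quasi-likelihood test 0 of the 48 members passed, and DESeq2 called 9, IFI44L, IFITM1 and XAF1 among them. Over all 19784 genes DESeq2 called 71. The list holds interferon-stimulated genes. These genes carry out antiviral defence downstream of the interferon receptors and of transcription factors such as STAT2 and IRF9, and several are expressed at a basal level without added interferon. Of 48 listed members, all tested, 27 lay lower at an unadjusted p under 0.05 (56.2%, against 6.68% of all genes tested) and 0 lay higher (0%, against 6.22%). The log2 fold changes of CSA, TAC and VCS were all below 0 for 37 members (77.1%, against 28.3% of all genes), and 22 members had no within-number difference above 0 (45.8%, against 4.21%). The median log2 fold change of the list was -0.21 in the mean contrast, -0.24 for CSA, -0.19 for TAC and -0.15 for VCS, against -0.0046 for all genes tested in the mean contrast. The list's summed level was 5028 to 5867 CPM in CSA, 4904 to 5834 in TAC, 5062 to 6067 in VCS and 5408 to 6510 in DMSO. Each drug overlapped DMSO in this sum. Of the 48 members 4 lay above 0, among them RSAD2 by 0.27 and HERC6 by 0.02, which were chosen after their values were seen.

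The members of smallest p were IFI44L, IFITM1 and XAF1. IFI44L, an interferon-induced gene on chromosome 1 (chr1:78619922-78646145, plus strand, GRCh38 with GENCODE 29), was at 45.5, 41.0 and 30.4 CPM in CSA libraries 1 to 3, 47.0, 51.6 and 44.0 in TAC, 51.3, 45.4 and 36.1 in VCS, and 62.9, 73.1 and 50.8 in DMSO. Each inhibitor library lay below the DMSO library of its number, and the groups overlapped only in that TAC replicate 2 and VCS replicate 1 exceeded DMSO replicate 3. The log2 fold change was -0.52 (SE 0.07, 95% interval -0.68 to -0.36), and it did not pass (adjusted p = 0.059, edgeR's quasi-likelihood test). By drug, CSA differed from DMSO by -0.68 (adjusted p = 0.0395, edgeR's quasi-likelihood test), TAC by -0.38 (0.166) and VCS by -0.49 (0.316). CSA alone passed. The mean contrast of IFI44L passed with robust estimation of the spread (adjusted p = 0.0474), in DESeq2 (5.61e-06) and without all CSA libraries (0.038). It also passed without CSA replicate 1 (0.041) or CSA replicate 3 (0.0183), and without the 4 libraries numbered 3 (0.0353). In all, IFI44L passed in 7 of 24 alternative settings. By edgeR's quasi-likelihood test its adjusted p was 0.884 without the replicate block and 0.391 with 1 term for any inhibitor.

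IFITM1 (chr11:313506-315272, plus strand) encodes a membrane protein that restricts entry of viruses. It was at 28.6, 23.4 and 20.1 CPM in CSA, 28.3, 26.4 and 23.4 in TAC, 31.5, 29.8 and 26.2 in VCS, and 35.9, 38.3 and 30.3 in DMSO. VCS replicate 1 was the only inhibitor library above the lowest DMSO library. In the mean contrast it differed from DMSO by -0.41 (SE 0.06, adjusted p = 0.0822, edgeR's quasi-likelihood test). By the same test CSA differed by -0.54 (adjusted p = 0.0465), TAC by -0.42 (0.0576) and VCS by -0.26 (0.385). The mean contrast of IFITM1 passed in DESeq2 (adjusted p = 0.000569), without all CSA libraries (0.038), and without CSA replicate 1 (0.0383) or CSA replicate 3 (0.0295). In all, IFITM1 passed in 5 of 24 alternative settings, and not without the replicate block (adjusted p = 0.884, edgeR's quasi-likelihood test). XAF1, an interferon-induced pro-apoptotic gene, was at 65.9 to 70.9 CPM in CSA, 67.2 to 95.2 in TAC, 58.1 to 90.5 in VCS and 90.3 to 110.8 in DMSO. Its difference was -0.47 (SE 0.08, adjusted p = 0.132), and TAC replicate 3 and VCS replicate 3 overlapped DMSO. It passed in DESeq2 (adjusted p = 0.000134), without all CSA libraries (0.038), without CSA replicate 3 (0.0321) and without the 4 libraries numbered 3 (0.0353). In all, XAF1 passed in 5 of 24 alternative settings, and not without the replicate block (adjusted p = 0.884, edgeR's quasi-likelihood test).

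The promoters of these genes were inspected because many interferon-stimulated genes carry the interferon-stimulated response element. Its core, GAAA, any 2 bases and GAAA, read on both strands, occurred in the 250 bases before the start of 25 of the 39 listed genes with a RefSeq promoter (64.1%), against 3.41% of the 12917 tested genes with one and 3.02% of all 35116 windows. The list was made of known interferon-stimulated genes, so this share describes the list and not the response to the drugs. Both sequences below are from RefSeq on GRCh38.p14, plus strand, 5′ to 3′, with the core in capitals. IFI44L is chr1:78620330-78620429 and IFITM1 is chr11:313940-314039.
IFI44L: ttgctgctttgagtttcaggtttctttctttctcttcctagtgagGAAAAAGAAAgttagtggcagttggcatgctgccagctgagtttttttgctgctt
IFITM1: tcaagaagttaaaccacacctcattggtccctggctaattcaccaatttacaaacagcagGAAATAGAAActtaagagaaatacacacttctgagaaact

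Genes of antigen presentation, which interferons also induce, lay lower in part. Of 19 tested members, 3 lay lower at an unadjusted p under 0.05 (15.8%, against 6.68% of all genes) and 0 higher. The median log2 fold change was -0.06. NLRC5, the transactivator of MHC class I genes, was at 23.6 to 27.1 CPM in CSA, 22.0 to 23.7 in TAC, 23.6 to 27.4 in VCS and 28.7 to 30.6 in DMSO. The groups did not overlap, which held for 0.394% of all genes in this direction. Its log2 fold change was -0.28 (SE 0.05, adjusted p = 0.189, edgeR's quasi-likelihood test), and that of the class I gene HLA-F was -0.24 (SE 0.07, adjusted p = 0.305).

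**Figure D2:**
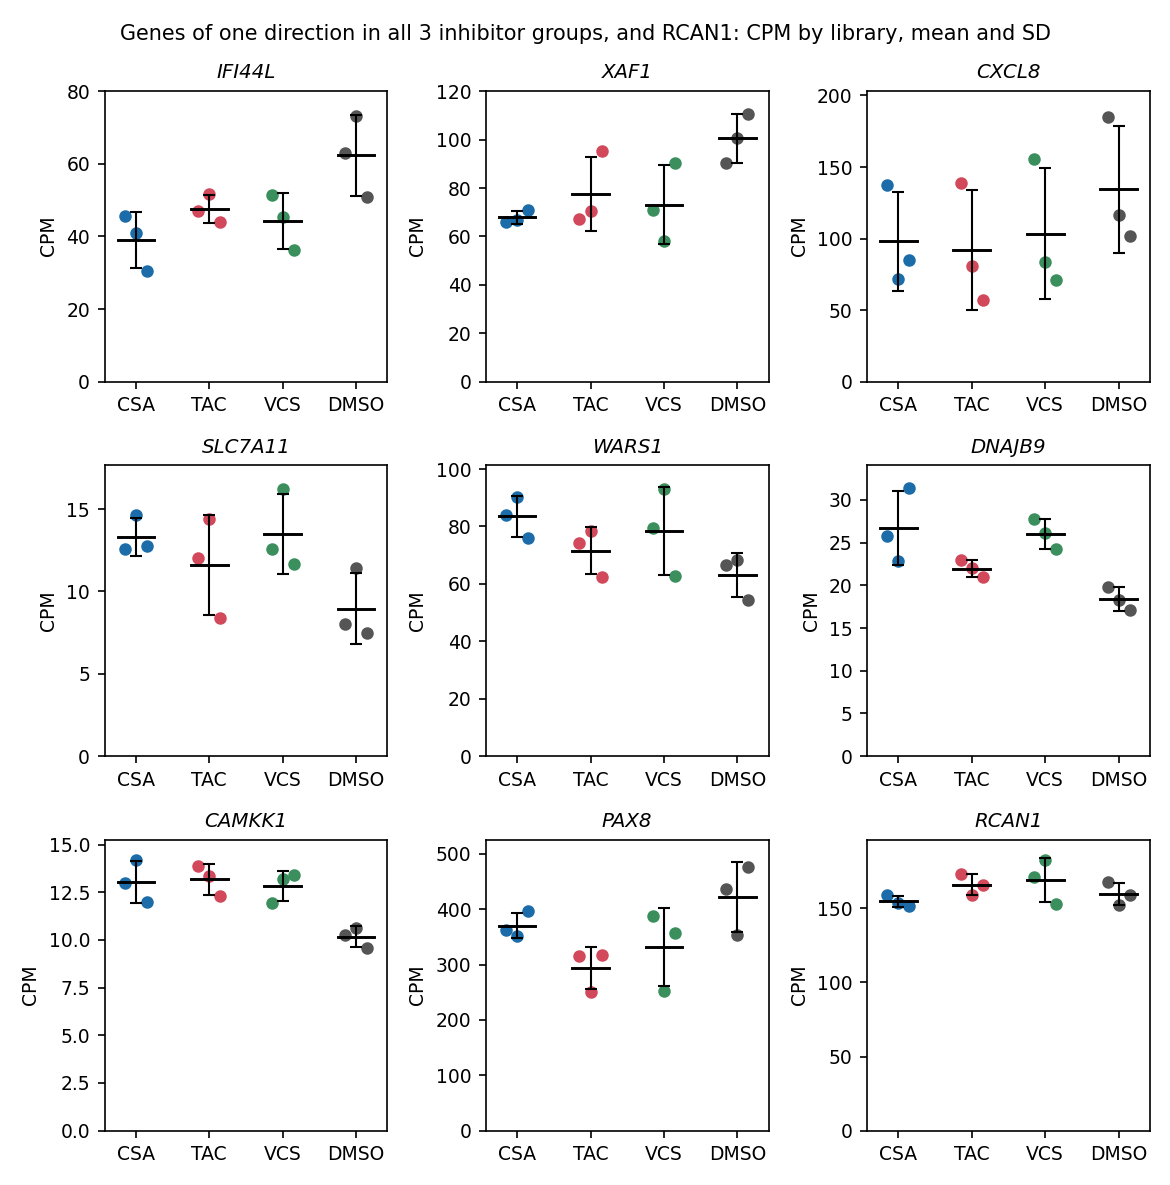
CPM of 9 genes in each of the 12 libraries (points), with the mean (line) and SD (bar) of each group of 3. IFI44L, XAF1, CXCL8 and PAX8 are lower on average in CSA, TAC and VCS than in DMSO, SLC7A11, WARS1, DNAJB9 and CAMKK1 are higher, and RCAN1 is nearly level.

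Inflammatory genes controlled by NF-kB also lay mostly below 0, 29 of the 37 tested. Of the 37, 10 lay lower at an unadjusted p under 0.05 (27.0%, against 6.68% of all genes) and 0 lay higher. None had all 3 inhibitors above 0 (0%, against 27.5%), 14 had all 3 below 0 (37.8%, against 28.3%), and 5 had no within-number difference above 0 (13.5%, against 4.21%). The median was -0.08 in the mean contrast, but -0.10 for CSA, -0.28 for TAC and -0.01 for VCS. In 2 of the 37 members the inhibitors differed by the test among them, which called 0.238% of all genes tested. In the mean contrast 0 members passed by edgeR's quasi-likelihood test. DESeq2 called 4 members, CXCL1 (adjusted p = 0.000199), CXCL8 (0.000248) and IL6 (0.00587) among them, and 71 of the 19784 genes in all.

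CXCL1 and CXCL8 encode chemokines that draw neutrophils. CXCL1 (chr4:73869393-73871242, plus strand) was at 100.5, 43.8 and 45.8 CPM in CSA, 96.9, 41.2 and 35.3 in TAC, 111, 51.8 and 51.6 in VCS, and 119, 65.7 and 63.3 in DMSO. Level differed more between number 1 and the other numbers than between drugs and DMSO, and within each number all 3 inhibitor libraries were below DMSO. It passed without all CSA libraries (adjusted p = 0.0383) and without CSA replicate 3 (0.0469). In all, CXCL1 passed in 4 of 24 alternative settings, and not without the replicate block (adjusted p = 0.884, edgeR's quasi-likelihood test). The log2 fold change of the mean contrast was -0.43 (SE 0.07, adjusted p = 0.132, edgeR's quasi-likelihood test). By the same test CSA differed by -0.43 (adjusted p = 0.297), TAC by -0.60 (0.0226) and VCS by -0.25 (0.405). TAC alone passed.

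CXCL8 followed the same order, with 137, 71.8 and 85.4 CPM in CSA, 138, 81.1 and 56.8 in TAC, 156, 83.6 and 71.4 in VCS, and 185, 116 and 102 in DMSO. Its log2 fold change was -0.48 (SE 0.09, adjusted p = 0.189). The cytokine gene IL6 was at 157 to 188 CPM in CSA, 133 to 182 in TAC, 158 to 204 in VCS and 180.2 to 226 in DMSO, a difference of -0.26 (SE 0.05, adjusted p = 0.204). All 9 within-number differences of each were below 0, while raw levels overlapped between groups. CXCL8 passed without CSA replicate 3 (adjusted p = 0.00465), without all CSA libraries (0.0173) and without the 4 libraries numbered 3 (0.0217). In all it passed in 5 of 24 alternative settings, and not without the replicate block (adjusted p = 0.884, edgeR's quasi-likelihood test).

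A kB site, GGG, any 2 bases and TTTCC on either strand, occurred in the promoter window of 13 of the 28 NF-kB list genes matched (46.4%), against 2.49% of the tested genes. As for the interferon list, this share describes how the list was made and not the response to the drugs. Windows of the members of smallest p that hold a kB site, CXCL1 (chr4:73869269-73869368, plus strand) and IL6 (chr7:22727082-22727181, plus strand), are given from RefSeq on GRCh38.p14 with the site in capitals.
CXCL1: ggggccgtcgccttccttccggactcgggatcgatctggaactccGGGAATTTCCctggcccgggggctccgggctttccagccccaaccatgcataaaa
IL6: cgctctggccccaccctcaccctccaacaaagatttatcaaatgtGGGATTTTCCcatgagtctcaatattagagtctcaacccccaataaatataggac

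Targets of ATF4 were the pathway list displaced furthest above 0. ATF4 mediates the integrated stress response and turns on amino acid transport, serine and asparagine synthesis and aminoacyl-tRNA synthetases. Of 41 tested members, 21 lay higher at an unadjusted p under 0.05 (51.2%, against 6.22% of all genes) and 1 lay lower (2.44%). In 24 members all 3 inhibitors were above 0 (58.5%, against 27.5%), and in 12 all 9 within-number differences were (29.3%, against 4.21%). The median was 0.16 in the mean contrast, 0.23 for CSA, 0.07 for TAC and 0.18 for VCS. The summed level of the 43 listed genes was 4249 to 4348 CPM in CSA, 3705 to 3998 in TAC, 3912 to 4304 in VCS and 3626 to 3975 in DMSO. TAC and VCS overlapped DMSO in this sum, and CSA did not. By edgeR's quasi-likelihood test 0 members passed and 0 differed among the inhibitors, where 0.0152% and 0.238% of all genes did. In the mean contrast DESeq2 called 4 members, SLC7A11 (adjusted p = 0.00611), WARS1 (0.00611) and PHGDH (0.0177) among them. It called 71 of the 19784 genes in all.

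SLC7A11, the light chain of the cystine and glutamate exchanger, was at 12.6, 14.6 and 12.8 CPM in CSA, 12.1, 14.4 and 8.39 in TAC, 12.6, 16.2 and 11.7 in VCS, and 7.996, 11.4 and 7.48 in DMSO. TAC replicate 3 was the only inhibitor library below the highest DMSO library. It differed from DMSO by 0.52 (SE 0.10, 95% interval 0.31 to 0.73, adjusted p = 0.189, edgeR's quasi-likelihood test).

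WARS1, the tryptophanyl-tRNA synthetase gene, was at 84.0, 90.4 and 76.2 CPM in CSA, 74.1, 78.4 and 62.4 in TAC, 79.5, 93.2 and 62.7 in VCS, and 66.7, 68.2 and 54.3 in DMSO, a difference of 0.30 (SE 0.06, adjusted p = 0.189). WARS1 is also an interferon-responsive gene, and it lay opposite to the interferon list. PHGDH, the first enzyme of serine synthesis, averaged 64.5 ± 6.05 CPM in inhibitor libraries (SD, n = 9) and 53.6 ± 4.93 CPM in DMSO libraries (SD, n = 3), a difference of 0.27 (SE 0.05, adjusted p = 0.192). TAC and VCS replicates 3 overlapped DMSO in WARS1, and TAC and VCS replicates 1 did in PHGDH.

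The CARE core, TGATGNAA on either strand, to which ATF4 dimers bind, occurred in the window of 7 of the 33 ATF4 list genes matched (21.2%), against 2.54% of the tested genes. Here too the share describes how the list was made and not the response to the drugs. The windows of CHAC1, a glutathione-degrading enzyme (chr15:40953221-40953320, plus strand), and ASNS, asparagine synthetase (chr7:97872422-97872521, minus strand), are printed as examples chosen after their values were seen. The core, in capitals, reads on the opposite strand in CHAC1. Sequences are from RefSeq on GRCh38.p14.
CHAC1: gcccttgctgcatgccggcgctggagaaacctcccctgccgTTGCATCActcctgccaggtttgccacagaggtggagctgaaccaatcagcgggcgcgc
ASNS: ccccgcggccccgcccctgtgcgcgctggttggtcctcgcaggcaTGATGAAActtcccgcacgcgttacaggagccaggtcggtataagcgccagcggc
CHAC1 averaged 11.8 ± 1.21 CPM in inhibitor libraries (SD, n = 9) and 9.80 ± 0.744 CPM in DMSO libraries (SD, n = 3), with a log2 fold change of 0.27 (SE 0.07, adjusted p = 0.287, edgeR's quasi-likelihood test). ASNS averaged 35.0 ± 6.31 CPM in inhibitor libraries and 28.6 ± 6.45 CPM in DMSO libraries, a difference of 0.30 (SE 0.09, adjusted p = 0.305), made of 0.43 for CSA, 0.13 for TAC and 0.34 for VCS.

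The unfolded protein response shares part of its signalling with the ATF4 pathway, and its list was displaced less. Of 32 tested members, 6 lay higher at an unadjusted p under 0.05 (18.8%, against 6.22% of all genes) and 1 lower (3.12%, against 6.68%). The list's median was 0.06. DNAJB9, a co-chaperone of the endoplasmic reticulum and a target of XBP1, was at 25.8, 22.9 and 31.4 CPM in CSA, 22.9, 22.0 and 20.9 in TAC, 27.8, 26.1 and 24.2 in VCS, and 19.8, 18.2 and 17.1 in DMSO. All 9 inhibitor libraries lay above all DMSO libraries, as they did for 0.248% of genes. The log2 fold change was 0.43 (SE 0.09, adjusted p = 0.204, edgeR's quasi-likelihood test). DNAJB9 passed in DESeq2 (adjusted p = 0.0113), without all CSA libraries (0.0198) and without CSA replicate 3 (0.0183). In all it passed in 4 of 24 alternative settings, and not without the replicate block (adjusted p = 0.884, edgeR's quasi-likelihood test). SEL1L and HERPUD1, parts of the machinery that removes misfolded proteins, differed by 0.39 (SE 0.13, adjusted p = 0.324) and 0.21 (SE 0.07, adjusted p = 0.329), each above 0 in all 9 differences.

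**Figure D3:**
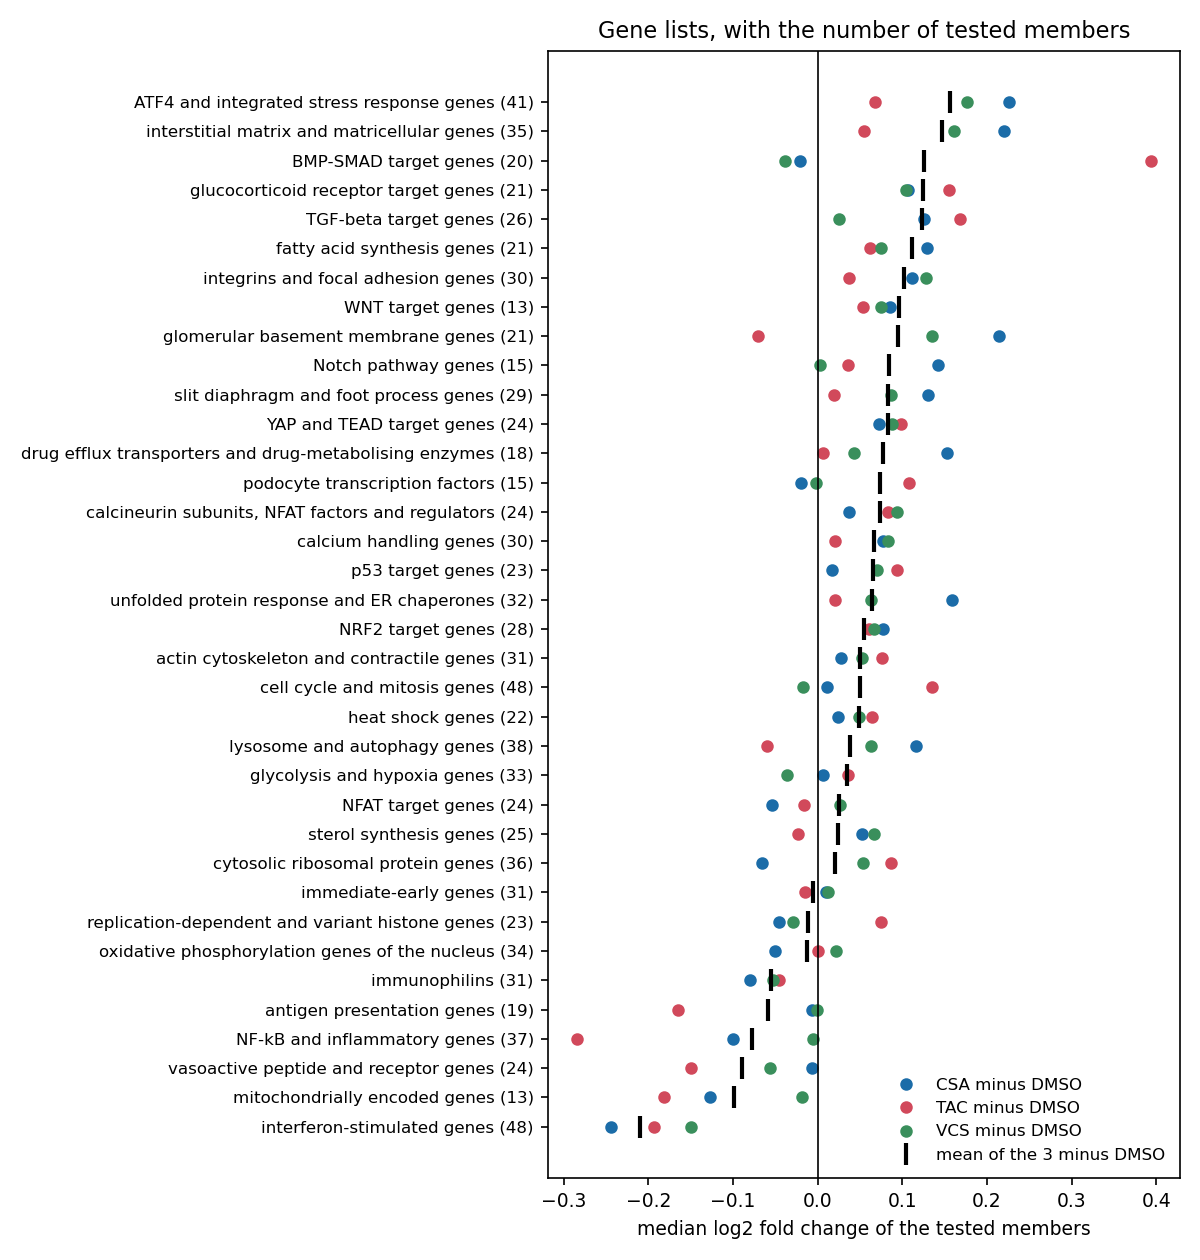
Median log2 fold change of the tested members of each of the 36 pathway lists, for CSA, TAC and VCS against DMSO (points) and for their mean (bar), with the number of tested members in brackets. In the mean the interferon list is the lowest, with all 3 inhibitors left of 0, and the ATF4 list the highest, with all 3 right of 0; BMP targets are to the right of 0 in TAC alone.

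Matrix and matricellular genes tended upward. Of 35 tested members, 6 lay higher at an unadjusted p under 0.05 (17.1%, against 6.22%) and 0 lower, with a median of 0.15 in the mean contrast, 0.22 for CSA, 0.05 for TAC and 0.16 for VCS. TNC, the matricellular protein tenascin C, was at 184 to 194 CPM in CSA, 124 to 232 in TAC, 155 to 236 in VCS and 112 to 159 in DMSO, a difference of 0.53 (SE 0.13, adjusted p = 0.272, edgeR's quasi-likelihood test). TGFBI, a secreted TGF-beta-induced protein, differed by 0.29 (SE 0.07, adjusted p = 0.267), with 0.16 for CSA, 0.56 for TAC and 0.16 for VCS. Of the 3 drugs, TAC alone passed for TGFBI (adjusted p = 0.0217, edgeR's quasi-likelihood test). CCN2, also called connective tissue growth factor, differed by 0.31 (SE 0.11, adjusted p = 0.326). All 9 differences were above 0 for each of the 3 genes, while raw levels overlapped between inhibitor and DMSO libraries in all 3.

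Among 26 tested targets of TGF-beta, 7 lay higher (26.9%, against 6.22% of all genes) and 1 lower (3.85%, against 6.68%) at an unadjusted p under 0.05. The inhibitors differed in 3 of the 26, and in 0.238% of all genes tested. TSPAN2, a tetraspanin, was at 29.8 to 38.7 CPM in CSA, 34.4 to 39.3 in TAC, 31.8 to 43.1 in VCS and 27.4 to 31.6 in DMSO, a difference of 0.29 (SE 0.06, adjusted p = 0.204, edgeR's quasi-likelihood test). Only CSA replicates 1 and 2 overlapped DMSO.

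Of 21 tested genes of the glomerular basement membrane, 5 lay higher (23.8%, against 6.22% of all genes) and 0 lower at an unadjusted p under 0.05. COL4A1, a type IV collagen chain, differed by 0.30 (SE 0.12, adjusted p = 0.351, edgeR's quasi-likelihood test), with 8 of 9 differences above 0. The list's median was 0.21 for CSA, -0.07 for TAC and 0.13 for VCS.

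Podocyte genes that were measurable showed small differences. Of 29 tested genes of the slit diaphragm and foot process, 6 lay higher (20.7%, against 6.22% of all genes) and 0 lower at an unadjusted p under 0.05. The list's median was 0.08. SYNPO, which encodes synaptopodin, was at 58.1, 54.3 and 67.3 CPM in CSA, 61.0, 57.0 and 49.8 in TAC, 61.8, 59.9 and 48.3 in VCS, and 52.3, 41.9 and 44.8 in DMSO. Each inhibitor library exceeded the DMSO library of its number, while TAC and VCS replicates 3 lay below DMSO replicate 1. It differed from DMSO by 0.31 (SE 0.09, 95% interval 0.12 to 0.51, adjusted p = 0.305, edgeR's quasi-likelihood test).

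WT1 differed by 0.34 (SE 0.27, adjusted p = 0.582), and ACTN4, an actin crosslinker, by 0.03 (SE 0.06, 95% interval -0.09 to 0.16, adjusted p = 0.809). TRPC6, a calcium channel gene, had 0 to 6 counts per library and was not tested, and neither was NPHS1. Of 31 actin and contractile genes, 4 lay higher (12.9%, against 6.22% of all genes) and 0 lower at an unadjusted p under 0.05. CALD1, MYH9 and FLNC differed by 0.21, 0.25 and 0.35 (SE 0.07, 0.09 and 0.12), each with all 9 differences above 0 and none past the threshold.

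PAX8, a transcription factor of kidney development and a marker of parietal epithelial cells, lay lower. It was at 363, 352 and 396 CPM in CSA, 316, 250.5 and 317 in TAC, 387, 253 and 356 in VCS, and 436, 353 and 476 in DMSO. Each inhibitor library lay below the DMSO library of its number, and CSA replicates 1 and 3 and VCS replicates 1 and 3 overlapped the DMSO range. The log2 fold change was -0.35 (SE 0.07, adjusted p = 0.223, edgeR's quasi-likelihood test), with -0.17 for CSA, -0.52 for TAC and -0.35 for VCS. The parietal markers as a list did not share this direction. Of 10 tested, 5 lay above 0 and 5 below, with a median of 0.0069. At an unadjusted p under 0.05, 2 lay higher (20%, against 6.22% of all genes) and 1 lower (10%, against 6.68%). The antisense gene PAX8-AS1, chosen because it overlaps PAX8, differed by -0.43 (SE 0.10, adjusted p = 0.267), and without a statement that counting used strand the 2 cannot be told apart.

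The calcineurin circuit itself was nearly level. RCAN1, an inhibitor of calcineurin and a classical NFAT target, was at 159, 154 and 151 CPM in CSA, 173, 159 and 166 in TAC, 171, 182 and 153 in VCS, and 168, 152 and 159 in DMSO. The libraries of the 4 groups overlapped. Its log2 fold change was 0.03 (SE 0.06, 95% interval -0.10 to 0.16, adjusted p = 0.835, edgeR's quasi-likelihood test).

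PPP3CA, a catalytic subunit of calcineurin, was at 61.2 to 63.8 CPM in CSA, 61.0 to 64.4 in TAC, 64.6 to 68.5 in VCS and 58.6 to 59.8 in DMSO. The groups did not overlap, as for 0.248% of all genes in this direction, yet the difference was only 0.10 (SE 0.05, 95% interval -0.0004 to 0.20, adjusted p = 0.388). FKBP1A and PPIA, the binding proteins of TAC and of CSA, differed by -0.05 (SE 0.07) and -0.07 (SE 0.08), and NFATC2 by 0.09 (SE 0.18). NFATC3 and CSNK1A1, an NFAT factor and a kinase that phosphorylates NFAT, differed by 0.31 and 0.21 (SE 0.09 and 0.06), with adjusted p-values of 0.305 each.

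Of 24 tested calcineurin subunits, NFAT factors and regulators, 3 lay higher (12.5%) and 0 lower at an unadjusted p under 0.05, with a median of 0.07. Of 24 tested NFAT targets, 1 lay higher (4.17%) and 5 lower (20.8%). Over all genes tested, 6.22% lay higher and 6.68% lower at that threshold. CXCL8 and IL6 are in both the NFAT and the NF-kB list. The NFAT median was 0.03 in the mean contrast (-0.0038 to 0.04 across settings), -0.05 for CSA, -0.02 for TAC and 0.03 for VCS. The NFAT site TGGAAAA on either strand was in the promoter window of 2 of the 18 targets matched (11.1%), against 5.61% of the tested genes. Of 31 immunophilins, 3 lay higher and 3 lower (9.68% each). FKBP4 differed by 0.18 (SE 0.06), FKBP11 by -0.35 (SE 0.11) and the cyclophilin-related gene NKTR by -0.28 (SE 0.09), none past the threshold.

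Genes outside the lists also stood at the head of the ranking of higher genes. CAMKK1, a calcium and calmodulin-dependent kinase kinase, was at 13.0, 14.2 and 11.97 CPM in CSA, 13.9, 13.3 and 12.3 in TAC, 11.9, 13.2 and 13.4 in VCS, and 10.3, 10.6 and 9.56 in DMSO. All 9 inhibitor libraries exceeded all DMSO libraries, as for 0.248% of all genes. The drugs differed from DMSO by 0.36 for CSA, 0.37 for TAC and 0.34 for VCS. The mean contrast was 0.36 (SE 0.07, adjusted p = 0.204, edgeR's quasi-likelihood test).

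GRB10, an adaptor that dampens insulin receptor signals, was at 28.2 to 31.5 CPM in CSA, 29.2 to 34.0 in TAC, 27.4 to 31.8 in VCS and 24.2 to 25.5 in DMSO. The groups again did not overlap (0.248% of all genes in this direction), with a difference of 0.28 (SE 0.06, adjusted p = 0.204). MTMR6, a lipid phosphatase of the myotubularin family, differed by 0.36 (SE 0.07, adjusted p = 0.204), and its libraries overlapped. NDUFC2-KCTD14, a readthrough gene, was at 2.72 to 3.82 CPM in CSA, 3.45 to 4.48 in TAC, 4.0, 3.58 and 2.22 in VCS and 1.46 to 2.00 in DMSO, a difference of 1.07 (SE 0.18, adjusted p = 0.132). Of the 3 drugs, TAC alone passed for this gene (adjusted p = 0.0366, edgeR's quasi-likelihood test). The readthrough gene shares exons with NDUFC2 and KCTD14, which differed by -0.02 and -0.14, so how the counting split reads among these genes is uncertain.

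The 3 genes that passed did not move the same way under all 3 drugs. SFTPA1 (chr10:79610939-79615455, plus strand) and SFTPA2 (chr10:79555852-79560402, minus strand) encode surfactant protein A of the lung, and ENSG00000196656 (chr4:113214046-113217170, minus strand) is annotated as a transcribed processed pseudogene and has no symbol in the names used here, so reads shared with its parent gene are uncertain. Both surfactant genes were scarce. SFTPA1 had 9, 7 and 4 counts in CSA, 12, 4 and 1 in TAC, 148, 105 and 59 in VCS, and 140, 99 and 117 in DMSO. The libraries of CSA and TAC lay below all others and those of VCS overlapped DMSO.

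SFTPA1 fell in the mean contrast by 2.99 in log2 units (SE 0.25, adjusted p = 0.000974, edgeR's quasi-likelihood test), made of -4.25 for CSA (adjusted p = 0.00191), -4.51 for TAC (0.000525) and -0.22 for VCS (0.778). It had 2 of 9 differences above 0, both in VCS. It kept its call without any single library and lost it without the 4 libraries numbered 2. Its adjusted p was 0.473 with 1 term for any inhibitor.

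SFTPA2 had 29, 33 and 16 counts in CSA, 34, 27 and 20 in TAC, 231, 151 and 70 in VCS, and 218, 96 and 116 in DMSO. It fell by 1.63 in the mean (SE 0.21, adjusted p = 0.0271), with -2.49 for CSA, -2.44 for TAC and 0.06 for VCS. SFTPA2 lost its call without the replicate block (adjusted p = 0.51), without any one of the TAC libraries, without VCS replicate 2 and without DMSO replicate 1 or 3. SFTPA1 and SFTPA2 are near copies, so the split of reads between them is uncertain.

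ENSG00000196656 had 304, 235 and 195 counts in CSA, 0, 1 and 0 in TAC, 0, 0 and 0 in VCS, and 63, 244 and 409 in DMSO. The CSA libraries lay within the DMSO range, and in TAC and VCS the gene was nearly without counts, so it passed (adjusted p = 0.0271) on TAC and VCS, and its fitted fold change is no bound. The call was lost without CSA replicate 2, any one TAC library, VCS replicate 2 or DMSO replicate 2, and with robust estimation of the spread (adjusted p = 0.246).

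KRT5 and KRT14, keratins of basal epithelium, had the pattern of the surfactant genes. KRT5 had 45, 62 and 32 counts in CSA, 80, 40 and 39 in TAC, 508, 336 and 138 in VCS, and 424, 179 and 166 in DMSO. KRT14 had 10, 9 and 15 counts in CSA, 15, 9 and 8 in TAC, 199, 150 and 41 in VCS, and 196, 56 and 52 in DMSO. CSA and TAC lay below VCS and DMSO in every library. In the mean contrast KRT5 was at -1.45 (SE 0.21, adjusted p = 0.059) and KRT14 at -1.90 (SE 0.31, adjusted p = 0.132). KRT5 passed without CSA replicate 1, 2 or 3 (adjusted p = 0.041, 0.0127 and 0.0213), and KRT14 without CSA replicate 3 (0.00783). In all, KRT5 passed in 7 and KRT14 in 6 of 24 alternative settings. Without the replicate block their adjusted p-values were 0.884 and 0.837 by edgeR's quasi-likelihood test.

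H2BC26, a histone gene with near copies that can share reads, ran the opposite way, with 24, 35 and 34 counts in CSA, 29, 23 and 30 in TAC, 1, 1 and 3 in VCS, and 0, 2 and 0 in DMSO. Its adjusted p in the mean contrast was 0.189. The summed level of all 18 airway and lung markers listed, of which 15 were tested, was 24.7 to 30.6 CPM in CSA, 27.5 to 32.0 in TAC, 36.4 to 46.6 in VCS and 26.4 to 36.5 in DMSO. That of the 14 keratinocyte markers was 269 to 327 CPM in CSA, 266 to 286 in TAC, 280 to 352 in VCS and 261 to 338 in DMSO. At an unadjusted p under 0.05, 5 of the 13 tested lay lower (38.5%, against 6.68% of all genes) and 1 higher (7.69%, against 6.22%). Of the 15 airway markers 2 lay higher and 2 lower (13.3% each). The airway marker MUC5B lay higher by 1.34 (SE 0.35, adjusted p = 0.299, edgeR's quasi-likelihood test), with all 9 differences above 0. The keratinocyte marker IVL lay higher by 0.74 (SE 0.21, adjusted p = 0.305), with 8 of 9 above 0. The part of such markers in these results was not tested.

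**Figure D4:**
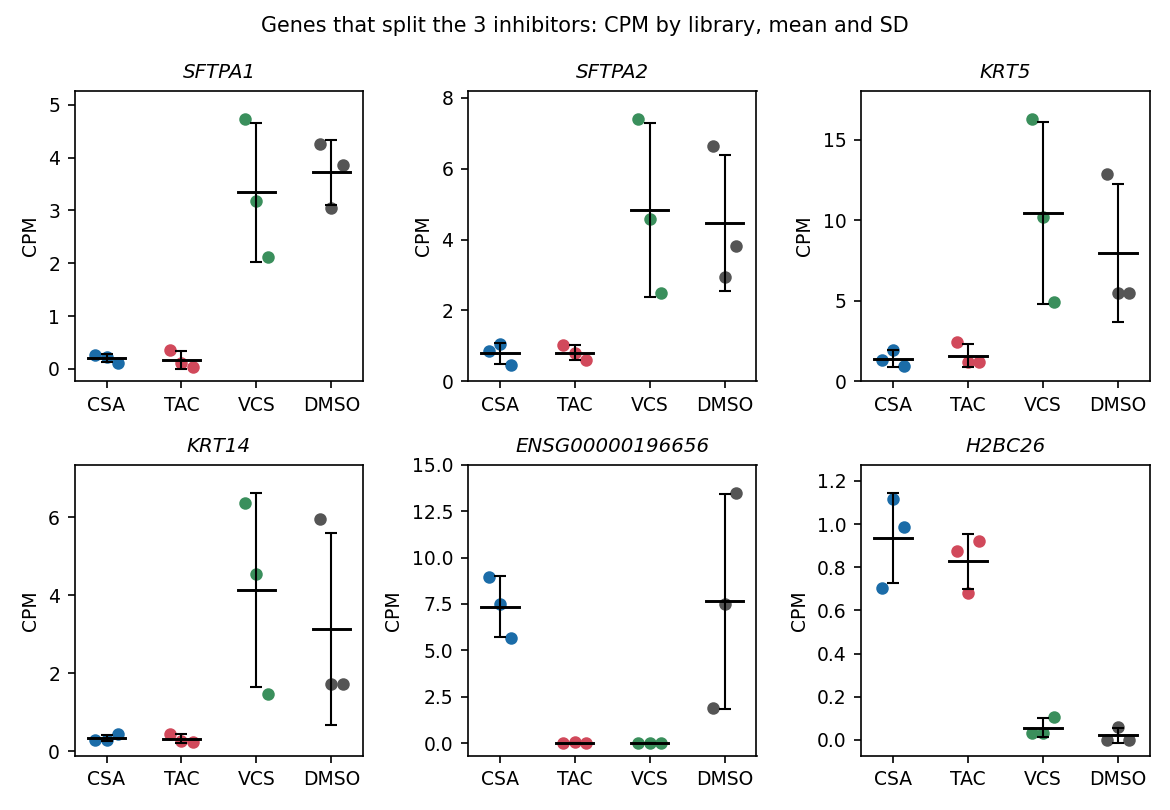
CPM by library of 6 genes in which the 3 inhibitors differed, with the mean (line) and SD (bar) of each group of 3. SFTPA1, SFTPA2, KRT5 and KRT14 are low in CSA and TAC and overlap DMSO in VCS; ENSG00000196656 is near 0 in TAC and VCS; H2BC26 is high in CSA and TAC.

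Among the markers of other cell types, all 15 hepatocyte markers were above 0 in the mean contrast (100% against 48.8% of all genes tested), with a median of 0.48 and 0 past the threshold. Their summed level was 284 to 561 CPM in CSA, 509 to 586 in TAC, 284 to 569 in VCS and 296 to 379 in DMSO. All 3 TAC libraries lay above the DMSO range, while CSA and VCS libraries overlapped it. Its part in the values above was not tested. Of 13 tested endothelial markers, 11 lay below 0 and 2 above (15.4%, against 48.8% of all genes), with a median of -0.11. At an unadjusted p under 0.05, 1 lay lower (7.69%, against 6.68%). Immune cell markers summed to 72.9 to 93.6 CPM in CSA, 59.8 to 82.7 in TAC, 79.1 to 82.5 in VCS and 71.5 to 83.7 in DMSO, and 7 of 14 were tested.

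The inhibitors were also compared with each other, which tests whether a shared direction differs in size. The 3 groups differed in 47 genes (0.238%) by edgeR's quasi-likelihood F test. None of the 48 interferon genes, 41 ATF4 genes or 32 unfolded protein response genes was among them. With 0.238% of all genes called, few or no members are to be expected in lists of these sizes. These counts therefore do not show that the response was equal across drugs. By pair, TAC minus CSA gave 65 genes (0.329%), TAC minus VCS 41 (0.207%) and VCS minus CSA 6 (0.0303%). Each drug against DMSO gave 6 genes for CSA (0.0303%), 41 for TAC (0.207%) and 0 for VCS (0%), where 2179 had an unadjusted p under 0.05. These 3 comparisons share the DMSO libraries.

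VCS, the structural analog of CSA, differed from it in SFTPA1 by 4.02 (95% interval 3.20 to 4.85, adjusted p = 0.00362, edgeR's quasi-likelihood test) and in KRT5 by 2.79 (2.17 to 3.42, adjusted p = 0.00463), at the same dose and time. In IFI44L, IFITM1, SLC7A11 and CAMKK1 the difference between VCS and CSA did not pass, and the intervals show what sizes remained possible. It was 0.19 for IFI44L (95% interval -0.02 to 0.39), 0.28 for IFITM1 (0.11 to 0.45), 0.00 for SLC7A11 (-0.24 to 0.25) and -0.02 for CAMKK1 (-0.21 to 0.17).

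TAC minus CSA was 0.30 for IFI44L (95% interval 0.10 to 0.51, adjusted p = 0.149) and -0.23 for WARS1 (-0.38 to -0.07, adjusted p = 0.147). TAC stood apart in BMP-SMAD targets. Of 20 tested, 7 differed among the drugs, where 0.238% of all genes tested did. The list's median was -0.02 for CSA, 0.39 for TAC and -0.04 for VCS. ID1, a repressor of helix-loop-helix factors, averaged 37.6 ± 10.5 CPM in CSA, 91.1 ± 3.86 in TAC, 40.1 ± 6.70 in VCS and 39.6 ± 5.64 in DMSO (SD, n = 3 each).

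In the fit with the replicate block, the 95% interval was narrow for most expressed genes. That fit assumes a pairing by number, which was not established. At an unadjusted p under 0.05, 2552 genes differed from DMSO with the block and 725 without it. Of 10165 genes with a mean of at least 10 CPM, the median SE of the mean contrast was 0.07 on the log2 scale, and the 95% interval lay within 1.5-fold of no change for 98.4% and within 2-fold for 99.8%. Of 15094 genes with at least 1 CPM the shares were 87.2% and 97.6%. The number of calls depended on the drugs included: leaving out all CSA libraries gave 391 genes, 364 of them with all 6 remaining differences on 1 side, leaving out all TAC libraries gave 1, and leaving out all VCS libraries gave 7. The 391 genes were called from 19455 tested in that setting. Among them were 12 of the 48 listed interferon genes, 5 of the 43 listed ATF4 genes and 4 of the 38 listed NF-kB genes.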

How the data were processed

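Poly(A) RNA was sequenced from 12 libraries with ERCC spike-ins and in-line molecular identifiers, per the labels' protocols. Whether identifiers were collapsed is not stated. The deposited table holds expected counts per gene, rounded to whole numbers, which the authors made with Salmon on GRCh38, per the submitters' processing notes. Strand and annotation release are not stated. Of 62262 genes, 22339 had no count, and 19784 passed edgeR's filterByExpr (minimum count 10). edgeR 4.0.16 (R 4.3.3, limma 3.58.1) with TMM scaling fitted group and replicate number, leaving 6 residual degrees of freedom, and the mean of CSA, TAC and VCS minus DMSO was tested by the quasi-likelihood test, with Benjamini-Hochberg adjustment over all genes tested. CPM are edgeR's values. Within-number differences used log2 CPM with a prior count of 2. Standard errors are the absolute log2 fold change over the square root of F. The pipeline was tested on simulated data.

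The members, 45 gene lists and tests were chosen with earlier results of these data known. Genes are named from 10 fixed genes, up to 15 per direction past the threshold without overlap, filled to 8 by smallest p at 1 CPM or more, up to 3 per list, and up to 4 that differ among inhibitors; others are said to be chosen after their values were seen. Alternatives were no replicate block, median-ratio scaling, no low-count filter, DESeq2 1.42.0, robust spread, 1 term for any inhibitor, and leaving out drugs, numbers or libraries. Promoters come from RefSeq, gene positions from GENCODE 29. Some genes that this rule names are not reported here.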

Additional observations from a re-analysis of the deposited data

Results flagged for a closer look

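Several genes differed among the 3 inhibitors by the test of that difference (edgeR's quasi-likelihood F test, adjusted p over all genes). SFTPA1 (adjusted p = 0.000268), SFTPA2 (0.00128), KRT5 (0.000774) and KRT14 (0.00306) were low in CSA and TAC and overlapped DMSO in VCS. H2BC26 (0.0343) was high in CSA and TAC. ENSG00000196656 (0.00306) was nearly without counts in TAC and VCS. ATOH8 (0.000268), ID1 (0.000268), CGB8 (0.000273) and SMAD7 (0.0208) were high in TAC. ATOH8, a helix-loop-helix transcription factor, had log2 fold changes of 0.08 for CSA, 0.96 for TAC and -0.09 for VCS against DMSO. ID1 had -0.09, 1.22 and 0.02 in CSA, TAC and VCS. CGB8, a chorionic gonadotropin subunit with near copies that can share reads, had 0.17, 1.12 and -0.18. SMAD7, an inhibitor of TGF-beta and BMP signals, had 0.09, 0.47 and -0.01.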

How the results depend on the processing

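The labels do not say that a replicate number marks a shared culture or day. Libraries of different groups were correlated on log2 CPM after each gene's group mean was subtracted. These residual correlations ran from 0.00694 to 0.532 for same-numbered libraries, with 14 of 18 over 0.1 (all 6 for number 3). Between different numbers they ran from -0.427 (VCS 3 with DMSO 1) to 0.263 (VCS 2 with DMSO 1). Not every same-numbered pair passed 0.1, so pairing by number was not established, though 11 of 12 libraries correlated best with their own number. The main fit still used the number as a block, and the within-number differences used it too, so those results assume a pairing. At an unadjusted p under 0.05, 2552 genes differed from DMSO with the replicate block and 725 without it. If no gene differed and genes were independent, 989 would be expected. Without the replicate block, 2 genes passed, 0 of them moved the same way, and 12 differed among the inhibitors, against 3, 0 and 47 with it. Without the low-count filter the counts were 826, 393 and 826. There the estimated prior degrees of freedom were infinite, so all genes shared 1 trend of spread. DESeq2 gave 71, 53 and 266. Robust spread gave 1 gene that moved the same way, and 1 term for any inhibitor gave 0 passing genes. Leaving out all CSA libraries gave 391, 364 and 106, with a common dispersion of 0.00506, against 0.00989 with them. Leaving out all TAC libraries gave 1 passing gene and 2 that differed, and leaving out all VCS libraries gave 7, 6 and 21. Without the 4 libraries of number 1 the counts were 4, 3 and 23, without number 2 they were 0, 0 and 0, and without number 3 they were 20, 14 and 53. Leaving out 1 library or number gave 0 to 20 passing genes, 0 to 14 that moved the same way and 0 to 137 that differed, and single libraries alone 1 to 12, 0 to 7 and 11 to 137. Apart from the shared trend and the samples left out, the cause was not tested. Of the named genes' values under alternatives, 3083 kept their side of the threshold, 25 lost it, 143 gained it and 0 changed sign while called. The interferon median ran from -0.23 to -0.17, the ATF4 median from 0.11 to 0.22 and the NF-kB median from -0.18 to -0.03.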
